A study of Mus musculus with 12 samples.

Results

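Thyroid hormone deiodinases, transporters and receptors were followed in mouse left ventricle through 6 genes of the 18050 in the deposited table: Dio3, Dio2, Slc16a10, Thra, Thrb and Rtl1. They were matched by gene symbol, and all 6 had values in all 12 libraries. The genes were chosen on their read counts in MI against sham within each replicate set, Dio3 because it was nearly silent in sham. Their levels and fold changes are therefore given as a description, with standard errors from the fit, and no test of them is reported. Rtl1 handles no hormone; it stands with the others as a neighbour of Dio3 on chromosome 12.

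The MI group held 6 left-ventricle libraries of wild-type mice, taken 7 days after MI, read here as myocardial infarction. The sham group held 6 left-ventricle libraries of wild-type mice taken 7 days after a sham operation. No transgene, drug or hormone treatment is named for either group, and strain, age and the number of animals per library are not given in the sources used here. Replicates 1 and 2 form one set in the submitters' processing notes and replicates 3 to 6 another. Expected counts, the estimated number of fragments per gene, summed to between 14168412 and 18602226 per MI library and between 9140353 and 16066681 per sham library. Replicates 3 to 6 lay very close together, with a coefficient of variation between libraries of 0.0207 in MI and 0.0298 in sham, against 0.192 in MI and 0.112 in sham replicates 1 and 2. Nothing says that libraries came from separate animals, so p-values reflect only how these libraries scatter, which may be technical scatter. For genes outside the chosen 6, "rose" and "fell" mean an adjusted p under 0.05 in the same direction in a test of all 12 libraries and in a test that counted replicates 3 to 6 once per group. By that rule 57.7% of 13654 tested genes were called: 28.0% rose and 29.7% fell. The shares higher and lower were 37.9% and 38.0% by the 12-library test alone, and 28.1% and 29.5% by the test that counted replicates 3 to 6 once. They were 34.1% and 32.9% in replicates 1 and 2 alone, and 42.3% and 39.6% in replicates 3 to 6 alone. A difference in fold change between the sets passed both tests for 10.5% of genes.

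Thyroid hormone reaches the heart mainly as thyroxine, which binds its receptors weakly. The deiodinase encoded by Dio2 removes an iodine from the outer ring and makes triiodothyronine, the active hormone, while that encoded by Dio3 removes an iodine from the inner ring and inactivates both forms. Membrane transporters such as the product of Slc16a10 carry the hormones across the plasma membrane, and the nuclear receptors encoded by Thra and Thrb bind DNA and change transcription with triiodothyronine. Dio3 is known as a gene of fetal tissue and placenta that is little used in most adult organs and that reappears in injured rodent heart. Dio3 and Rtl1 both lie in the Dlk1-Dio3 imprinted cluster, from which they are expressed mainly from the paternal chromosome.

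Both deiodinases are selenoproteins: a UGA codon that would otherwise end translation is read as selenocysteine, the residue of the catalytic centre. The coding strand around that codon is shown because it is the feature the enzymes share, with the codon in capitals, from GRCm38 and the GENCODE M21 transcripts.
Dio3, codon 170 of 304, codon at chr12:110279739-110279741, plus strand: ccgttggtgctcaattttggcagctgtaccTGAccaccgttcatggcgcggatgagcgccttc
Dio2, codon 130 of 266, codon at chr12:90729823-90729825, minus strand: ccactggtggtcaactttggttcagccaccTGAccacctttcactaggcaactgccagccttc
Dio2 has a further annotated selenocysteine codon at position 263, near the end of its reading frame, and Dio3 has 1 in all.

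The promoters of the 2 genes differ in makeup. RefSeq's table for GRCm38 gives 300 bases for each, 250 before and 50 after the start. Capitals mark a TATAAA box in both and, in Dio2, a TGACGTCA element, the sequence bound by factors that respond to cyclic AMP.
Dio3, chr12:110278980-110279279, plus strand: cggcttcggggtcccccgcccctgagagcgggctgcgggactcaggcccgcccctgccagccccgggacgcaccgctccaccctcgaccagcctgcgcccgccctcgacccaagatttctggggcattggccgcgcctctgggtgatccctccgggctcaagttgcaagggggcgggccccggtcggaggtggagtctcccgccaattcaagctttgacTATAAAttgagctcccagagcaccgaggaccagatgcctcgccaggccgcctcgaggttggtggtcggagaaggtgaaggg
Dio2, chr12:90738989-90739288, minus strand: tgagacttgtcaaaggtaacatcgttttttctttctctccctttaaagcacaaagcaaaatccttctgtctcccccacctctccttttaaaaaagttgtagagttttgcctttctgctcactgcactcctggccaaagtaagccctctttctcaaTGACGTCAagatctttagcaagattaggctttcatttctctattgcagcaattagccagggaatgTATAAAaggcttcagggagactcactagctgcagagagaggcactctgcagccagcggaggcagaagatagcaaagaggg
The Dio3 window is 69% G and C with 25 CG pairs, and the Dio2 window is 44.7% with 3, against a median of 52.7% over 32851 promoters of the same length. Searched on both strands, TATAAA stood in 13.6% and TGACGTCA in 1.79% of all promoters. Neither window held AGGTCA, the receptor half-site, which stood in 16.3%, nor, as the half-site is its part, the direct repeat with a spacer of 4 bases, which stood in 0.0152%, nor ACGTG, the core of hypoxia elements, which stood in 19.6%. These matches are descriptions of letters and not binding sites.

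Dio3 (gene ID 107585; GRCm38 chr12:110279068-110281097, plus strand) was present in every MI library and nearly absent in sham. Expected counts in MI replicates 1 and 2 were 140 and 111, against 4 and 5 in sham replicates 1 and 2. In MI replicates 3 to 6 they were 46, 39, 51 and 41, against 0, 1, 0 and 0 in sham replicates 3 to 6. Every MI library lay above every sham library, and the MI libraries of replicates 1 and 2 lay above those of replicates 3 to 6. As CPM, counts scaled to a common library total, the lowest, median and highest MI libraries stood at 2.40, 2.94 and 6.74, and the highest sham library at 0.37. For the 3 sham libraries with no count, 3 counts, taken as the most that a count of 0 allows, correspond to 0.349 to 0.36 CPM. Summed over replicates 1 and 2, 251 counts in MI and 9 in sham gave a ratio of scaled counts of 17.5 (95% exact interval 9.07 to 38.7). Over replicates 3 to 6, 177 counts in MI and 1 in sham gave 89.2 (15.8 to 3544). These intervals overlap and cover counting error only. The fitted log2 fold change was 4.66 (SE 0.35) over 12 libraries and 4.60 (SE 0.51) with replicates 3 to 6 counted once; being fitted against counts near 0, it depends on the fit's prior count and is no bound. Of 13654 tested genes, 104 had a larger fitted value.

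Dio2 (gene ID 13371; chr12:90724552-90738438, minus strand), the activating enzyme, was also higher in MI. Its expected counts in MI were 409 and 377 in replicates 1 and 2 and 281, 321, 307 and 295 in replicates 3 to 6, against 29, 24, 26, 27, 21 and 16 in sham replicates 1 to 6. In CPM the 6 MI libraries spanned 17.00 to 19.74 with a median of 18.3, and the 6 sham libraries 1.78 to 3.36 with a median of 2.35. Both sets agreed closely in level within MI, at 18.6 ± 1.59 CPM (SD, n = 2) and 18.3 ± 1.17 CPM (SD, n = 4), unlike Dio3, whose MI level was 5.94 ± 1.14 CPM in replicates 1 and 2 and 2.69 ± 0.319 CPM in replicates 3 to 6. Dio2 had a log2 fold change of 2.92 (SE 0.14) over 12 libraries, 3.20 within replicates 1 and 2, and 2.80 within replicates 3 to 6. A transcript on the opposite strand, Gm26512, shares 1.72% of the Dio2 exon bases. Dio1, the deiodinase of liver and kidney, averaged 0.00505 CPM over all libraries.

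**Figure D1:**
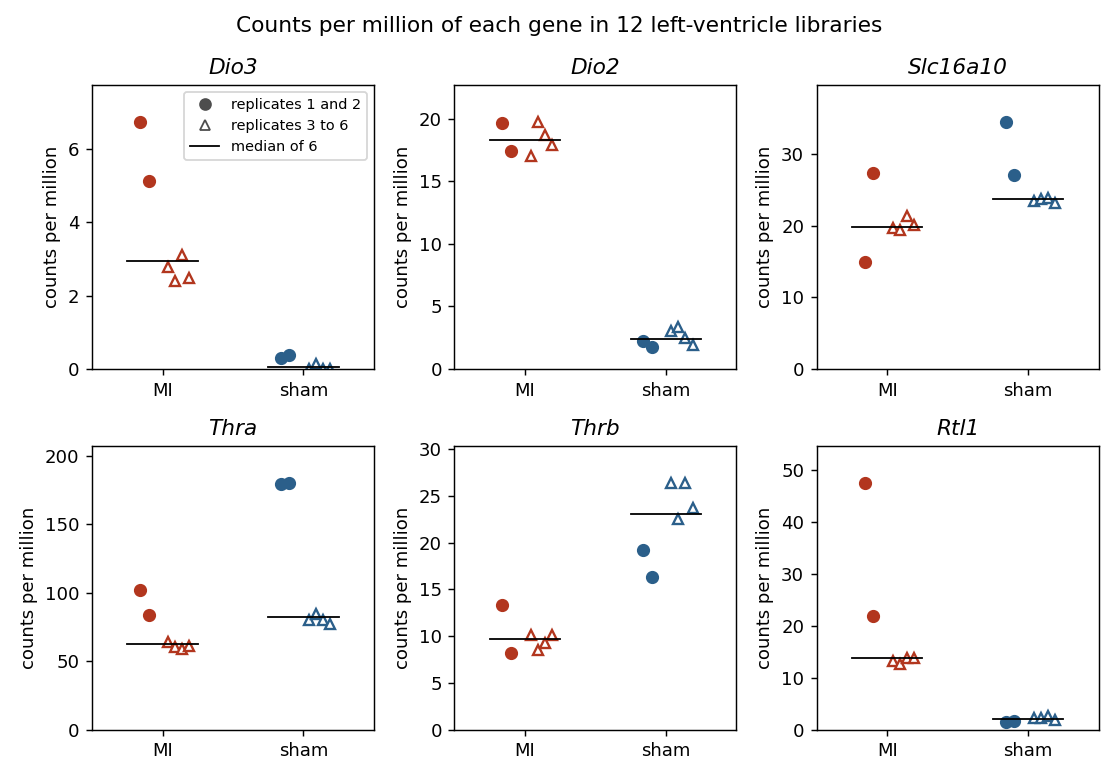
CPM of the 6 genes in each library, MI left and sham right, with filled circles for replicates 1 and 2, open triangles for replicates 3 to 6 and a line at the median of 6. Dio3, Dio2 and Rtl1 lie higher in every MI library than in any sham library and Thrb lower, while Slc16a10 and Thra overlap between the groups.

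The balance of the 2 enzymes was read within each library from FPKM, which divides by length and depth and so allows genes to be compared. The ratio of Dio3 to Dio2 was 1.20 and 1.03 in MI replicates 1 and 2, against 0.483 and 0.739 in sham replicates 1 and 2. It was 0.572, 0.425, 0.582 and 0.486 in MI replicates 3 to 6, against 0, 0.13, 0 and 0 in sham replicates 3 to 6. The ratio was thus higher in MI than in sham within each set, but sham replicate 2 lay above all 4 MI libraries of replicates 3 to 6. Sham ratios rest on at most 5 counts of Dio3.

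**Figure D2:**
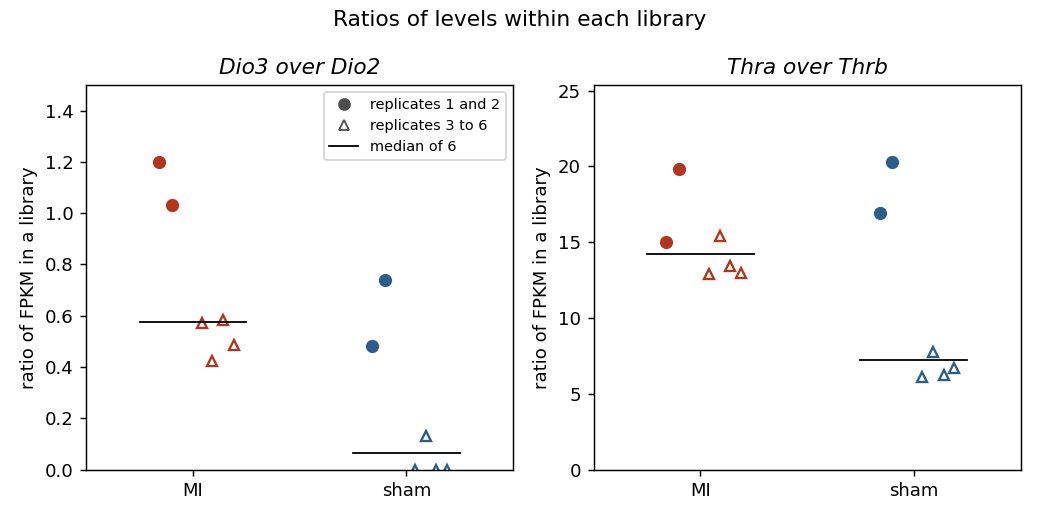
Ratio of FPKM values within each library for Dio3 over Dio2 and for Thra over Thrb, MI left and sham right, with symbols by replicate set and a line at the median of 6. Dio3 reached Dio2 in level only in MI replicates 1 and 2, at 1.20 and 1.03, and the ratio of Thra to Thrb lay between 6.12 and 7.76 in sham replicates 3 to 6 and between 12.9 and 20.3 in the other 8 libraries.

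Slc16a10 (gene ID 72472; chr10:40033532-40142258, minus strand), a transporter of aromatic amino acids and thyroid hormones, differed little in level. Its CPM was 14.91 and 27.32 in MI replicates 1 and 2, against 34.49 and 27.13 in sham replicates 1 and 2. In MI replicates 3 to 6 it lay between 19.47 and 21.32 CPM, against 23.18 to 23.86 in sham replicates 3 to 6. The groups overlapped, because MI replicate 2 stood above 5 sham libraries. The log2 fold change was -0.34 (SE 0.13) over 12 libraries, and its sign depends on the scaling: with library size alone it was 0.08, where the median of all genes was 0.424 and not 0.0141. The length by which the authors' FPKM divides the count differed more clearly. Worked back from count and FPKM, it was 4.86 and 4.92 kb in MI replicates 1 and 2, against 4.12 and 4.17 kb in sham replicates 1 and 2. In replicates 3 to 6 it was 4.18 to 4.54 kb in MI, against 3.46 to 3.78 kb in sham. The MI lengths lay above the sham lengths in both sets; 5.58% of the 8000 genes with enough counts did the same, and 31 of them had a larger ratio than the 1.20 of Slc16a10. Such a length changes when reads are assigned to transcripts of different length, and the second deposited table lists 3 transcripts for this gene. Which transcripts changed was not tested, and the measure was chosen after its values were seen.

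Other carriers of thyroid hormone moved both ways. Of 12 transporter genes listed, 10 were in the table and 6 were tested, of which 4 rose and 2 fell. Among all tested genes 28.0% rose and 29.7% fell. The log2 fold changes of the tested transporters had a median of 0.94, against 0.01 over all tested genes. Slc3a2, the heavy chain of amino acid exchangers that also carry thyroid hormone, rose by 1.04 on the log2 scale (SE 0.09) and was at 74.3 to 165 CPM in MI, against 35.7 to 67 CPM in sham. Its light chains Slc7a5 and Slc7a8 rose by 1.51 (SE 0.16) and 2.01 (SE 0.24) on the log2 scale; they are named after their values were seen. The organic anion transporters Slco2b1 and Slco3a1 fell. Slco2b1 stood at 9.74 to 12 CPM in MI, against 22.8 to 55.3 CPM in sham, and its fall was larger in replicates 3 to 6 (log2 fold change -2.27) than in replicates 1 and 2 (-1.14), a difference that passed both tests (adjusted p = 1.18e-06 and 0.0315). Slco3a1 was at 46.9 to 66.4 CPM in MI, against 111 to 178 CPM in sham (log2 fold change -1.07, SE 0.12).

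Hormone handling beyond transport was mostly at low level. Of 7 genes for metabolism and binding, 6 were in the table and 1 was tested. That gene, Sult1a1, a sulfotransferase that acts on phenols, fell to 4.67 to 14.5 CPM in MI, against 30 to 90.9 CPM in sham (log2 fold change -2.59, SE 0.06; adjusted p = 8.67e-12 and 0.000515). Among 8 tested genes for the making and turnover of deiodinases, 1 rose, 3 fell and 4 did not pass, where 28.0% of all tested genes rose and 29.7% fell. With library size alone as scaling, however, 3 of the 8 rose and 1 fell. Wsb1, an adaptor that marks the Dio2 enzyme for degradation, was the one that rose, and stood at 46.2 to 131 CPM in MI, against 10.7 to 51.3 CPM in sham (log2 fold change 1.68, SE 0.15). It was higher in MI within each set, but the groups overlapped, since sham replicates 3 to 6 stood above the lower of MI replicates 1 and 2. With no replicate set covariate Wsb1 was at 1.51 on the log2 scale and not called. Pstk, a kinase in the synthesis of selenocysteine, fell with a log2 fold change of -1.54 (SE 0.12). Sephs2, which supplies selenophosphate for the same path, fell with -0.72 (SE 0.10) and was at -0.31 and not called with library size alone.

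Thra (gene ID 21833; chr11:98740638-98769006, plus strand), the main receptor gene of the heart, was the most abundant of the 6 by length-scaled level. In replicates 1 and 2 it stood at 101.65 and 83.57 CPM in MI, against 179.74 and 180.34 CPM in sham. In replicates 3 to 6 it lay between 59.19 and 63.77 CPM in MI, against 77.21 to 84.70 CPM in sham. MI was lower within each set, but MI replicates 1 and 2 reached the level of sham replicates 3 to 6, so the groups overlapped. Over 12 libraries the log2 fold change was -0.59 (SE 0.10); it was -0.98 for replicates 1 and 2, was -0.35 for replicates 3 to 6, and shrank to -0.18 with library size alone as scaling. In FPKM replicates 3 to 6 showed no lower level in MI, at 23.1 to 24.33 FPKM, against 22.65 to 23.9 FPKM in sham. FPKM lacks the scaling between libraries used for CPM, so the baselines differ. Over 12 libraries the median log2 fold change of all genes was 0.3 to 0.416 in FPKM, depending on the constant added. With the scaling used for CPM it was 0.0141. Thra gives a receptor that binds the hormone and a product that does not, and counts per gene do not part them. Its exons overlap Nr1d1 on the opposite strand over 5.7% of the Thra exon bases, and whether the libraries keep strand is not stated in the labels. Nr1d1, a clock repressor, itself fell and was at 46.4 to 92.9 CPM in MI, against 80.2 to 250 CPM in sham (log2 fold change -1.03, SE 0.09; adjusted p = 8.73e-07 and 0.00267); its share in the Thra counts was not tested.

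Thrb (gene ID 21834; chr14:17660261-18038090, plus strand), the second receptor gene, was lower in CPM in every MI library than in any sham library. It stood at 13.33 and 8.26 CPM in MI replicates 1 and 2, against 19.28 and 16.33 CPM in sham replicates 1 and 2. In MI replicates 3 to 6 it lay between 8.58 and 10.14 CPM, against 22.51 to 26.42 CPM in sham replicates 3 to 6. In FPKM, which lacks that scaling between libraries, the groups overlapped, as MI replicate 1, at 2.38, lay above sham replicate 2, at 2.21. The log2 fold change was -1.15 (SE 0.14) over 12 libraries and -0.97 (SE 0.26) with replicates 3 to 6 counted once, and it stayed negative, at -0.74, with library size alone. The 2 sets ordered the receptors differently: Thra had the larger fold in replicates 1 and 2 and Thrb, at -1.33, the larger in replicates 3 to 6. The ratio of Thra to Thrb in FPKM was 15 and 19.8 in MI replicates 1 and 2, against 16.9 and 20.3 in sham, and 12.9 to 15.4 in MI replicates 3 to 6, against 6.12 to 7.76 in sham. MI and sham overlapped in this ratio in replicates 1 and 2 and lay apart in replicates 3 to 6.

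Among all 6 genes, those whose MI and sham libraries did not overlap in CPM were Dio3, Dio2 and Rtl1, higher in MI, and Thrb, lower. Of all tested genes 42.6% did not overlap, 21.3% in each direction, and nothing is read from the count since the contrast chose the genes. The order of FPKM levels, leaving out Rtl1 for the reason given below, was Thra, Slc16a10, Dio2, Dio3 and Thrb in MI, with medians of 24.2, 5.18, 3.28, 1.85 and 1.79. In sham it was Thra, Slc16a10, Thrb, Dio2 and Dio3, with medians of 23.5, 5.7, 3.24, 0.315 and 0.03. Every neighbouring pair was apart in sham, whereas in MI only Thra stood apart from the gene next to it. In MI, Slc16a10 lay above Dio2 in 5 of 6 libraries, Dio2 above Dio3 in 4 and Dio3 above Thrb in 3.

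**Figure D3:**
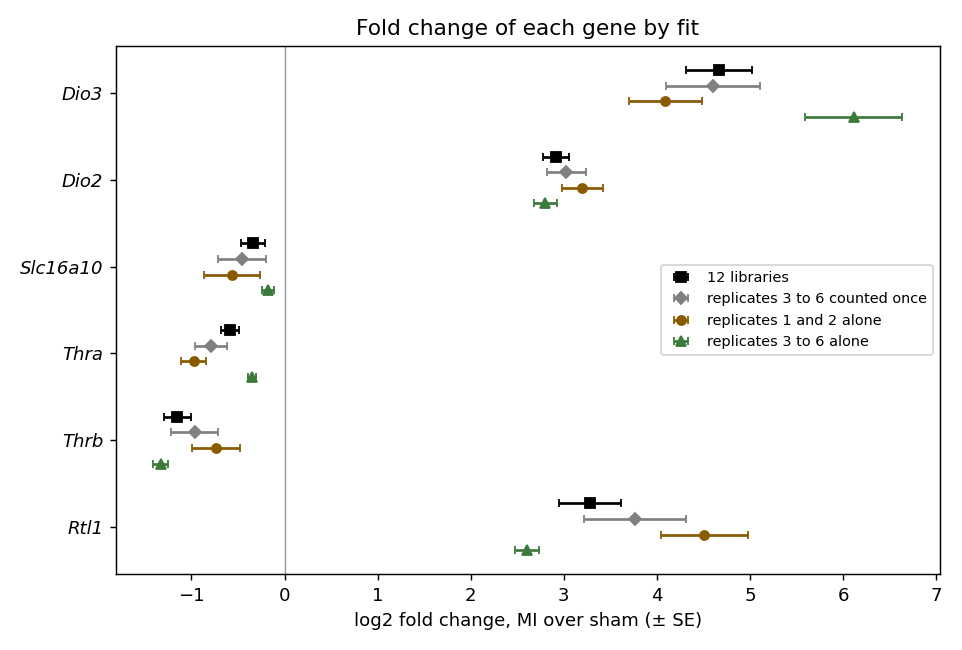
Log2 fold change of each gene, MI over sham, with its standard error, fitted over 12 libraries, with replicates 3 to 6 counted once, and in each replicate set alone. Dio3, Dio2 and Rtl1 lie to the right of 0 in every fit and Slc16a10, Thra and Thrb to the left, with Dio3 at 4.09 and 6.11 and Rtl1 at 4.51 and 2.60 in the 2 sets.

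Most receptor partners and coregulators did not pass. Of 16 genes tested, 6 fell, where 29.7% of all tested genes fell, 0 rose and 10 did not pass in both tests, while the 12-library test alone put 2 higher; with library size alone as scaling 7 rose and 1 fell, so the direction of this group depends on the scaling. At an unadjusted p under 0.05 in both edgeR tests 0 were higher, DESeq2 put 0 higher and limma on log2 FPKM 6. Rxrb, a partner with which the receptors bind DNA, had a log2 fold change of -0.63 (SE 0.06), Ncoa2, a coactivator, -0.59 (SE 0.06), and Hdac3, the deacetylase of the corepressor complex, -0.47 (SE 0.05). None of these 3 was called with library size alone, where they stood at -0.22, -0.18 and -0.06, and Hdac3 was also not called without MI replicate 2 (-0.43) or without sham replicate 1 (-0.46). The largest fall of the list, outside the naming rule and named after its values were seen, was that of Rxrg, another such partner, at -2.93 on the log2 scale (SE 0.36; adjusted p = 1.08e-05 and 0.00287). It stood at 4.07 to 18.15 CPM in MI, against 78.23 to 108.17 CPM in sham, and replicates 1 and 2 alone gave -4.67, replicates 3 to 6 alone -2.14. Ncor1, the corepressor itself and the most abundant of those not called, was at 79.3 to 102 CPM in MI, against 81.9 to 125 CPM in sham.

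Genes that thyroid hormone induces in heart and other tissues were lower in MI. Of 19 such genes, all tested, 16 fell, 0 rose and 3 did not pass, where 29.7% of all tested genes fell. The median log2 fold change of the 19 was -1.99, against 0.01 over all tested genes. The 12-library test and the test with replicates 3 to 6 counted once each called 0 higher by edgeR, with 0 higher at an unadjusted p under 0.05 in both tests and 0 by DESeq2 and by limma, while replicates 3 to 6 alone put 2 higher and library size alone 1. Kcnd2, a potassium channel subunit of ventricular repolarization, stood at 4.86 to 5.35 CPM in MI, against 30.8 to 34.9 CPM in sham (log2 fold change -2.66, SE 0.06; adjusted p = 8.67e-12 and 0.000515). Its 2 sets were nearly equal by counts, at -2.70 and -2.60, but not by FPKM, where the mean was 0.43 in MI, against 4.95 in sham in replicates 1 and 2, and 1.11 in MI, against 5.3 in sham in replicates 3 to 6. Ucp3, a mitochondrial carrier, fell to 0.385 to 2.36 CPM in MI, against 34.2 to 47.3 CPM in sham (log2 fold change -4.87, SE 0.23), more in replicates 1 and 2 (-6.20) than in replicates 3 to 6 (-4.39), a difference that passed both tests. Klf9, a transcription factor gene with a receptor element known upstream, was at 44.2 to 63 CPM in MI, against 138 to 220 CPM in sham (log2 fold change -1.75, SE 0.10). Atp1b1, the beta subunit of the sodium pump and the most abundant of those not called, was lower in MI replicates 1 and 2 (log2 fold change -1.44) and higher in MI replicates 3 to 6 (0.32), and this difference passed both tests (adjusted p = 1.42e-06 and 0.0485).

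Genes that the hormone represses fell as well. Of 5 tested, 4 fell, 0 rose and 1 did not pass, where 29.7% of all tested genes fell. The 5 had a median of -0.998 on the log2 scale. Of them 0 were higher at an unadjusted p under 0.05 in both edgeR tests, and 0 by DESeq2 and by limma. Pln, the inhibitor of the sarcoplasmic calcium pump, stood at 449 to 3488 CPM in MI, against 6668 to 11979 CPM in sham (log2 fold change -2.45, SE 0.35; adjusted p = 3.94e-05 and 0.00628). The adenylyl cyclases Adcy5 and Adcy6 fell, at -1.39 (SE 0.22) and -0.998 (SE 0.13) on the log2 scale. Myh7, the slow myosin heavy chain and the member that did not pass, lay on opposite sides of sham in the sets: it was at 265 and 862 CPM in MI replicates 1 and 2, against 2665 and 2992 CPM in sham, and at 1152 to 1209 CPM in MI replicates 3 to 6, against 88.9 to 99 CPM in sham. The difference between sets passed both tests (adjusted p = 1.16e-07 and 0.0248). Without MI replicate 1 the number that passed as lower was 12 among the induced genes and 2 among the repressed genes, and Pln no longer passed, at -2.18 on the log2 scale.

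Markers of heart muscle fell over the same libraries. Of 8 cardiomyocyte markers 7 fell and 1 did not pass, where 29.7% of all tested genes fell. The median of the 8 was -2.47 on the log2 scale, and Myh6 stands both in this list and among the induced genes. Their summed level was 6006 to 10180 CPM in MI replicates 1 and 2 and 29760 to 30390 CPM in MI replicates 3 to 6, against 92950 to 103200 CPM in sham. The medians of the 3 lists followed this split: -2.86, -2.32 and -4.13 in replicates 1 and 2 and -1.30, -0.74 and -1.69 in replicates 3 to 6 for induced, repressed and cardiomyocyte genes. In bulk samples fewer cells of a type and less RNA per cell cannot be told apart, and the part of muscle content in the hormone genes was not tested. Promoters of the induced genes, found in RefSeq's table for 14 of 19, held AGGTCA in 3 genes and the direct repeat in 0.

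**Figure D4:**
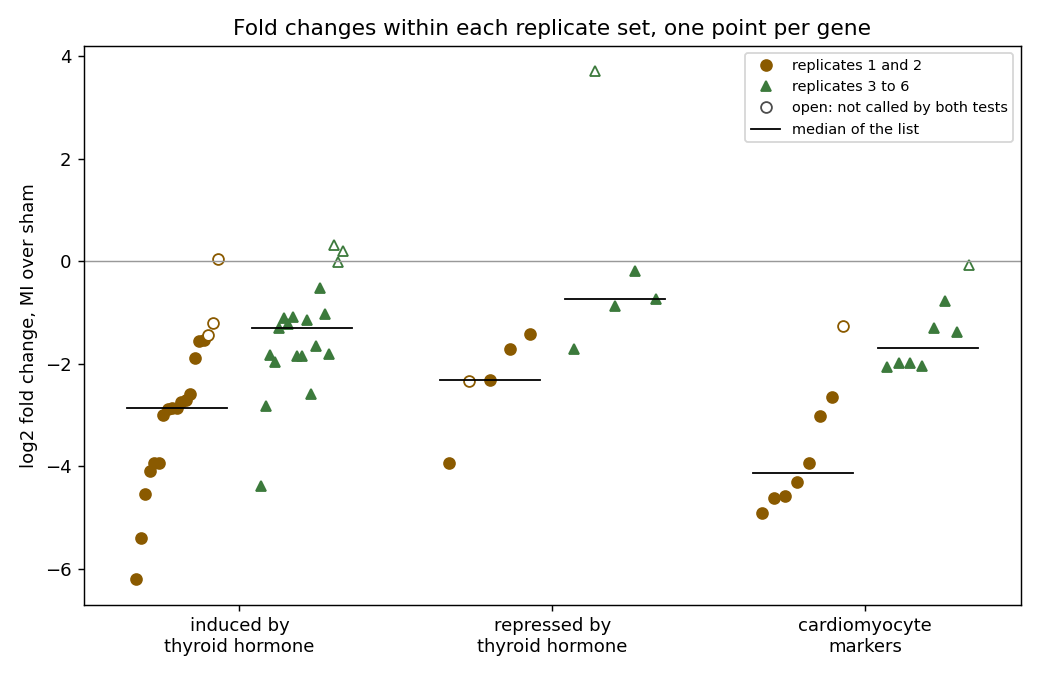
Log2 fold changes, MI over sham, within replicates 1 and 2 (circles) and replicates 3 to 6 (triangles) for genes induced by thyroid hormone, genes repressed by it and cardiomyocyte markers, one point per gene, with open symbols for genes not called by both tests and a line at each list's median. Most points of all 3 lists lie below 0 and lower in replicates 1 and 2, and the open triangle at 3.70 is Myh7.

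Markers of other tissues were also measured, among them those of brown fat, where Dio2 is known to be used. Of 4 brown fat markers in the table, Ucp1, the defining uncoupling protein, reached at most 0.23 CPM in any library, and their summed level was 4.35 to 21.15 CPM in MI, against 33.1 to 37.43 CPM in sham. Most of that sum was 1 gene, Cidea, which acts on lipid droplets and stood at 3.42 to 21.09 CPM in MI, against 29.84 to 36.06 CPM in sham. The 4 thyroid gland markers in the table summed to 1.34 to 3.38 CPM in MI, against 3.50 to 4.30 CPM in sham, led by Tg, thyroglobulin. Lung epithelial markers stood apart in one set: their sum was 168.3 to 172.5 CPM in MI replicates 3 to 6, against at most 2.79 CPM in the other 8 libraries, and Sftpc, a surfactant protein gene, led them with 113 to 116 CPM. In MI replicates 1 and 2 that sum was 2.64 and 2.79 CPM, and its relation to the 6 genes was not tested. Fibroblast and scar markers rose in 7 of 8 cases and macrophage markers in 6 of 7, where 28.0% of all tested genes rose. In MI replicates 1 and 2 the fibroblast and scar sums were 58170 to 73820 CPM. In MI replicates 3 to 6 they were 27720 to 28010 CPM, against 3023 to 3658 CPM in sham. Macrophage sums were 3724 to 5516 CPM and 3451 to 3574 CPM in the same MI sets, against 631 to 1132 CPM in sham. Neuron and glia sums were 16.45 to 18.14 CPM and 10.57 to 13.32 CPM there, against 5.24 to 15.44 CPM in sham. The fibroblast, macrophage, and neuron and glia sums were higher in MI replicates 1 and 2 than in MI replicates 3 to 6. Dio3 and Rtl1 had the same order. Lung and brown fat sums had the opposite order, with brown fat at 4.35 to 6.88 CPM, against 18.7 to 21.15 CPM. So had endothelium, at 581.1 to 633.2 against 863.5 to 888.8 CPM, and skeletal muscle, at 208.4 to 446.5 against 1982 to 2083 CPM. Neutrophil sums overlapped, at 25.47 to 65.14 against 40.66 to 42.57 CPM. The part of these cell types in the levels of the 6 genes was not tested.

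Rtl1 (gene ID 353326; chr12:109589193-109600330, minus strand), a gene derived from a retrotransposon with known roles in placenta and fetal muscle, lies in the same cluster as Dio3. Its expected counts were 987 and 474 in MI replicates 1 and 2, against 18 and 22 in sham replicates 1 and 2. In MI replicates 3 to 6 they were 218, 204, 225 and 227, against 19, 18, 22 and 16 in sham replicates 3 to 6. The groups did not overlap, and MI replicate 1 stood far above the rest at 47.51 CPM. The log2 fold change over 12 libraries was 3.28 (SE 0.34); within replicates 1 and 2 it was 4.51, and within replicates 3 to 6 it was 2.60. Dio3 had the opposite order, with its larger fold in replicates 3 to 6, where sham counts were near 0.

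Which transcript model these Rtl1 counts rest on is not stated in the labels. Count and FPKM imply a length of 30.6 to 31.1 kb in the MI libraries, while the GENCODE M21 exons of Rtl1 hold 6358 bases. RefSeq, with 1 coding transcript for the gene, gives it a span of 39519 bases that overlaps the end of Meg3 over 6830 bases and contains 15 microRNA hairpins. The second deposited table, which lists 1 transcript for the gene, gives 0.23 and 0.17 FPKM in MI replicates 1 and 2, against 0 and 0.06 FPKM in sham replicates 1 and 2. The 12-library table gives 1.71 and 0.82 FPKM for the same MI libraries, against 0.04 and 0.11 FPKM for the sham ones. The ratio between tables was 7.43 and 4.82 in MI, where the 99th percentile over all genes was 1.82 and 1.68. The higher level in MI stood in both tables, but at FPKM this low the second table gives no firm fold. Dio3, Dio2, Thra and Thrb differed between tables by a factor of 1.0 to 1.1, and Slc16a10 by 0.796 and 0.909 in the MI libraries.

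**Figure D5:**
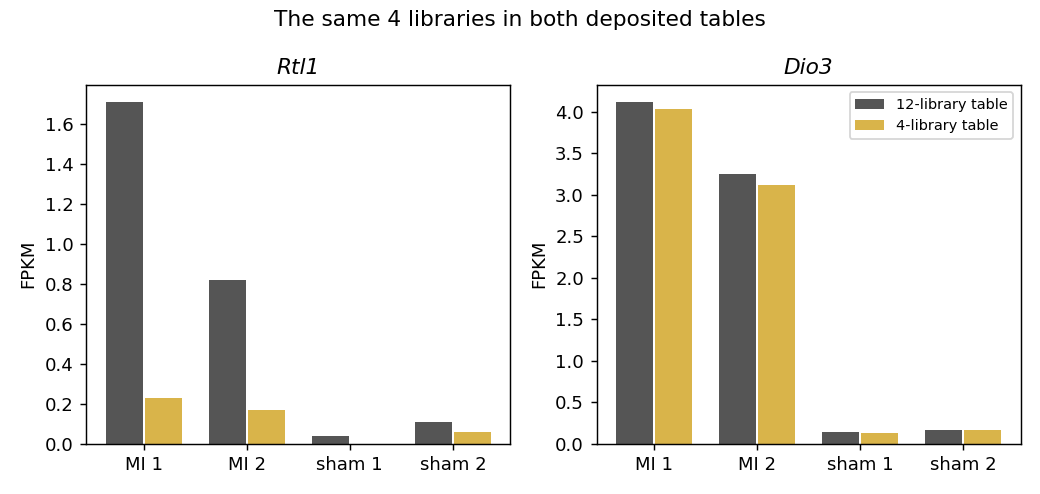
FPKM of Rtl1 and Dio3 in replicates 1 and 2 of MI and sham as given in the 12-library table (grey) and in the 4-library table (yellow). The bars match for Dio3, at 4.12 and 4.04 FPKM in MI replicate 1, and part for Rtl1, at 1.71 and 0.23 FPKM.

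The other strand of Rtl1 carries microRNAs with full complementarity to its transcript, among them miR-127-3p, whose mature sequence is in RefSeq. It is shown with its seed, bases 2 to 8, in capitals, beside the site in Rtl1 that a search of the transcript found, to mark which strand the reads of this locus could come from.
mmu-miR-127-3p, chr12:109592888-109592909, plus strand: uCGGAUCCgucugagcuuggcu
Rtl1 site, minus strand: agccaagctcagacggatccga
MicroRNA levels were not analysed here, and counts without strand cannot tell Rtl1 from antisense transcripts.

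Among other genes of the Dlk1-Dio3 cluster and its flanks, only flanking genes were tested. Of 9 listed, 5 were in the table and 4 tested, with 1 rise, 1 fall and 2 that did not pass. The 4 tested were Begain, Wars, Wdr25 and Ppp2r5c, so these counts do not describe genes inside the cluster. Among all tested genes 28.0% rose and 29.7% fell. Meg3, Rian, Mirg and Dio3os were not analysed here. Dlk1, at the far end of the cluster, did not reach the filter on low counts, at 0.10 to 0.60 CPM in MI, against 0 to 0.30 CPM in sham. The first set overlapped, with Dlk1 counts of 2 and 13 for MI, against 4 and 1 for sham. The second set lay apart, with 7, 7, 5 and 7 for MI, against 0 in every sham library. For those sham libraries 3 counts, the most that a 0 allows, equal 0.349 to 0.371 CPM. MI replicates 3 to 6 spanned 0.30 to 0.43 CPM, so the Dlk1 difference is not resolved and was not tested. Begain, which flanks the cluster, rose by 1.19 on the log2 scale (SE 0.34; adjusted p = 0.00676 and 0.0364), on 0.492 to 4.76 CPM in MI, against 0.117 to 1.33 CPM in sham; the call was lost without MI replicate 1 or 2 or without sham replicate 1, 2 or 3, where the log2 fold change lay between 0.96 and 1.28. Ppp2r5c fell with -0.39 (SE 0.05) and changed sign with library size alone (0.02) and with FPKM (0.09). With the replicate block neither Begain nor Ppp2r5c, then at -0.39, passed both tests. The Ppp2r5c call was also lost without MI or sham replicate 1 or 2, at -0.35 to -0.39. Wars was at 46.5 to 58.6 CPM in MI, against 45.9 to 90.3 CPM in sham, and did not pass. Among the 4 tested genes of this list, Begain had the largest log2 fold change and was the only rise. Genes of the region outside the list were not looked at.

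Genes of pathways reported to induce Dio3 were mixed, with more rises than falls. Hypoxia-inducible factor, transforming growth factor beta and hedgehog signalling are known inducers of Dio3 in cultured cells and rodent tissue. Of 9 tested genes of these pathways 5 rose, 1 fell and 3 did not pass. Among all tested genes 28.0% rose and 29.7% fell. The median log2 fold change of the 9 was 0.94, against 0.01 over all tested genes. Tgfb3 was at 191 to 407 CPM in MI, against 26.7 to 36.7 CPM in sham (log2 fold change 2.96, SE 0.12; adjusted p = 1.07e-09 and 0.000865). Tgfb2 was at 54.1 to 76.8 CPM in MI, against 14.4 to 18.6 CPM in sham (log2 fold change 1.99, SE 0.10). Hif1a, the oxygen-regulated subunit, was at 137 to 231 CPM in MI, against 62 to 98 CPM in sham (log2 fold change 1.21, SE 0.05), and Epas1, its paralogue, fell to 168 to 240 CPM in MI, against 383 to 516 CPM in sham (log2 fold change -0.98, SE 0.12). Tgfb1 and Gli2 were the remaining rises and are named after their values were seen. So are Smad3, Smad4 and Gli1, which did not pass, at 0.18, 0.06 and -0.52 on the log2 scale. Transcript levels of these genes do not measure the activity of their pathways.

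The genes whose levels followed Dio3 most closely over the 12 libraries included Pdia5, Serpinh1, Col1a2 and Sdc1, each with a Pearson r of 0.996 on log2(CPM + 0.5). Pdia5 and Serpinh1 act in the folding of secreted proteins and collagen, Col1a2 encodes a collagen chain and Sdc1 a cell-surface proteoglycan. Col1a2 was at 5804 to 18230 CPM in MI, against 216.8 to 572.9 CPM in sham. Likeness of this kind was common: of 13330 genes with at least 1 CPM, 657 exceeded an r of 0.95 with Dio3, and all points share the contrast between MI and sham. For Dio2 the closest gene was Capn6 (r = 0.993), for Thra Map2k7 (0.996), for Thrb Rgmb (0.986) and for Rtl1 Ifi44 (0.997). Slc16a10 had no gene above 0.95, and its closest was Sox12 (0.907).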

How the data were processed

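RNA of 12 libraries was enriched for mRNA with oligo(dT), per the labels' protocols. The submitters' processing notes name Bowtie2, RSEM and DESeq2 for replicates 3 to 6, no tool for replicates 1 and 2, and the GRCm38 build for all, with no versions. The deposited expected counts are unscaled estimated fragments per gene, and the FPKM values deposited by the authors are divided by length and depth. The second deposited table holds FPKM of replicates 1 and 2 alone. 425 genes blank in replicates 1 and 2 were left out of tests over all libraries.

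Expected counts were rounded and fitted with edgeR 4.0.16 in R 4.3.3 (quasi-likelihood F test, TMM scaling, filterByExpr, replicate set as covariate, Benjamini-Hochberg adjustment, threshold 0.05), over 12 libraries and with replicates 3 to 6 summed and counted once. A call needs both. CPM is scaled by TMM. The fit ran over all genes, but no test of MI against sham is reported for the 6. Each SE is the absolute log2 fold change divided by the square root of its F statistic. Alternatives were other scalings, DESeq2 1.42.0, limma 3.58.1 on log2 FPKM with pseudocounts of 1, 0.1 and 0.01, no filter, no covariate, a replicate block, each set alone and leaving out each library. Same-numbered libraries did not deviate together (correlations -0.0392 to 0.0595). The depth, 9140353 to 18602226 counts, sets the precision, and exact intervals at 95% cover counting error only.

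The genes, lists and tests were chosen with earlier results of these data known. Named from each list are the 3 called genes with the smallest adjusted p over 12 libraries and the most abundant one not called or called against the majority. The genes most like each of the 6, each marker list's sum and its most abundant member complete the rule. Some genes that the rule names are not reported here. Sequences are from RefSeq and GENCODE M21, both for GRCm38. Python 3.11.15, pandas 2.3.3 and scipy 1.17.1 were used.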

Additional observations from a re-analysis of the deposited data

Results flagged for a closer look

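In 66 groups of 6 libraries (33 genes, MI and sham), 11 libraries lay far from the other 5. Chance gives about 5% of groups where all 6 libraries vary alike, which these did not, since replicates 1 and 2 were more spread than replicates 3 to 6, so the count has no chance share to be read against. Among the 6 genes, given as values only, these were MI replicate 1 for Thrb at 13.3 CPM, MI replicate 1 for Rtl1 at 47.5 CPM and sham replicate 1 for Slc16a10 at 34.5 CPM. MI replicate 1 was also the highest for Adcy6 (126 CPM) and Adcy5 (63.3 CPM). MI replicate 2 was the lowest for Slco3a1 (46.9 CPM), Klf9 (44.2 CPM) and Myh7 (265 CPM) and the highest for Ppp2r5c (119 CPM). In sham, replicate 2 was the highest for Wars (90.3 CPM) and replicate 1 for Epas1 (516 CPM). Every one of the 11 belongs to replicates 1 and 2.

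For 5 of 27 named genes outside the 6, the log2 fold change differed between the replicate sets in both tests. The difference, replicates 3 to 6 minus replicates 1 and 2, was -1.13 for Slco2b1, 1.81 for Ucp3, 1.75 for Atp1b1, 2.24 for Pln and 6.05 for Myh7. The share of all tested genes with such a difference was 10.5%.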

How the results depend on the processing

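Of the 13654 genes tested, 3823 rose and 4055 fell. The counts were 6264 and 2477 with library size alone, where the median of all genes was 0.424, and 6420 and 2511, 6557 and 2555, and 6528 and 2529 with limma on log2(FPKM + pseudocount) for 1, 0.1 and 0.01. They were 2305 and 2216 with no set covariate, and 5759 rose in replicates 3 to 6 alone. Leaving out each library gave 2241 to 3912 rises and 2788 to 4072 falls. Library size alone put 3 of the deiodinase synthesis and turnover genes higher and 1 lower, and 7 coregulators higher and 1 lower. It put 1 induced gene higher and 0 cluster genes lower, where cluster genes means the list of the imprinted cluster and its flanks. Limma, at each pseudocount, put 1 metabolism gene, 2 deiodinase synthesis genes and 6 coregulators higher, and 1 deiodinase synthesis gene, 1 coregulator and 0 cluster genes lower. With no covariate 0 deiodinase synthesis genes and 0 cluster genes were higher, 3 reported inducers were higher, and 1 coregulator, 2 repressed genes and 0 cluster genes were lower. Replicates 3 to 6 alone put 2 deiodinase synthesis genes, 4 coregulators, 2 induced genes and 1 repressed gene higher and 2 reported inducers lower. Replicates 1 and 2 alone put 2 coregulators higher. The 12-library test alone, chosen after seeing the data, put 2 deiodinase synthesis genes and 2 coregulators higher and 2 cluster genes lower. Whether replicate numbers pair the samples is not known. With the replicate block 0 cluster genes were higher and 0 lower. Leaving out each library gave 0 to 1 cluster genes in each direction, 3 to 7 coregulators lower and 2 to 4 repressed genes lower. Signs turned for Slc16a10 with library size alone (0.0759) and for Ppp2r5c with library size alone (0.0170) and limma (0.0866, 0.0888 and 0.0890). The causes were not tested. Depth limits Dio3 in sham, with 10 counts over 6 libraries.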
